A study of Mus musculus with 6 samples.

Results

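The nuclear genes for the subunits of respiratory complexes III to V were examined in mouse bone marrow cells labeled LT-HSCs. The name stands for long-term hematopoietic stem cells, from which all blood lineages derive. The members were the 36 genes of 55487 in the expression table whose names stand on a fixed list: 10 for complex III and cytochrome c, 11 for cytochrome oxidase (complex IV) and 15 for ATP synthase (complex V). Members were listed by subunit name and not by a measured value. Bulk RNA sequencing gave 3 libraries from mice treated with carnosine (the dipeptide beta-alanyl-histidine) and 3 libraries from mice treated with saline. All mice were wild type and unirradiated, and the cells of both groups were sorted from bone marrow as Lineage-, Sca-1+, c-Kit+, Flk2- and CD34-. The sources used here do not give the dose, the duration of treatment, or the age, sex and number of mice. Nor do the labels say that the libraries of a group came from separate mice, so the p-values measure the spread between these libraries, which may be technical.

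Complex III passes electrons from ubiquinol to cytochrome c, cytochrome oxidase hands them to oxygen, and both pump protons across the inner mitochondrial membrane. ATP synthase lets the protons back through a rotating ring of c subunits, and the turning central stalk drives ATP formation in its catalytic head. A few core subunits of each complex are encoded by mitochondrial DNA, and the rest are made in the cytosol from nuclear genes and imported. LT-HSCs are known for their reliance on glycolysis and for low mitochondrial activity while quiescent.

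Total counts were 10442112 to 13251332 in the carnosine libraries and 10304539 to 13210166 in the saline libraries. All 36 members passed the filter on low counts that left 15298 genes for testing. Levels are given as CPM (counts relative to library size, after TMM scaling) or, between genes, as the deposited FPKM (fragments relative to gene length and library size). Fold changes are log2 values of carnosine over saline from edgeR, and a gene is called changed where its adjusted p-value over all tested genes lies under 0.05.

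In carnosine LT-HSCs, subunit genes rose in each of the 3 complexes. In edgeR, 14 of the 36 members (38.9%) rose, where 9.51% of all tested genes rose, and no member fell, where 8.39% of all tested genes fell. No member was lower at an unadjusted p under 0.05 either, and DESeq2 and limma-voom also called 0 members lower. The fold change was positive in 31 of 36 members, with a median of 0.19 against 0.00 over all tested genes and a range from -0.20 to 0.43. All 3 carnosine libraries lay above all 3 saline libraries in 18 members, a pattern that 19.7% of tested genes showed, and below them in 0 members, where 19% of tested genes did. The rises were modest, between 10.8% and 34.5% in the called members.

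The members together took 0.471% to 0.475% of the counts in carnosine libraries and 0.402% to 0.417% in saline libraries. Their summed level was 4767, 4751 and 4733 CPM in the carnosine libraries, against 4094, 4169 and 4028 CPM in the saline libraries. The groups did not overlap and the sum was 16% higher with carnosine. Atp5b and Atp5a1, the most abundant members by CPM, weigh most in it. Their means were 1035 and 793 CPM in carnosine and 847 and 652 CPM in saline. In bulk RNA, more RNA per cell and a larger share of cells with high levels cannot be told apart. Leaving out 1 library lowered the number of called members most for carnosine replicates 1 and 2 (8 called each) and for saline replicates 1 and 3 (9 called each). DESeq2 called 9 members and limma-voom called 15. The 7 members called in every fit that left out 1 library were Uqcrc1, Uqcrfs1, Cox7a2, Atp5a1, Atp5b, Atp5pb and Atp5g3.

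**Figure D1:**
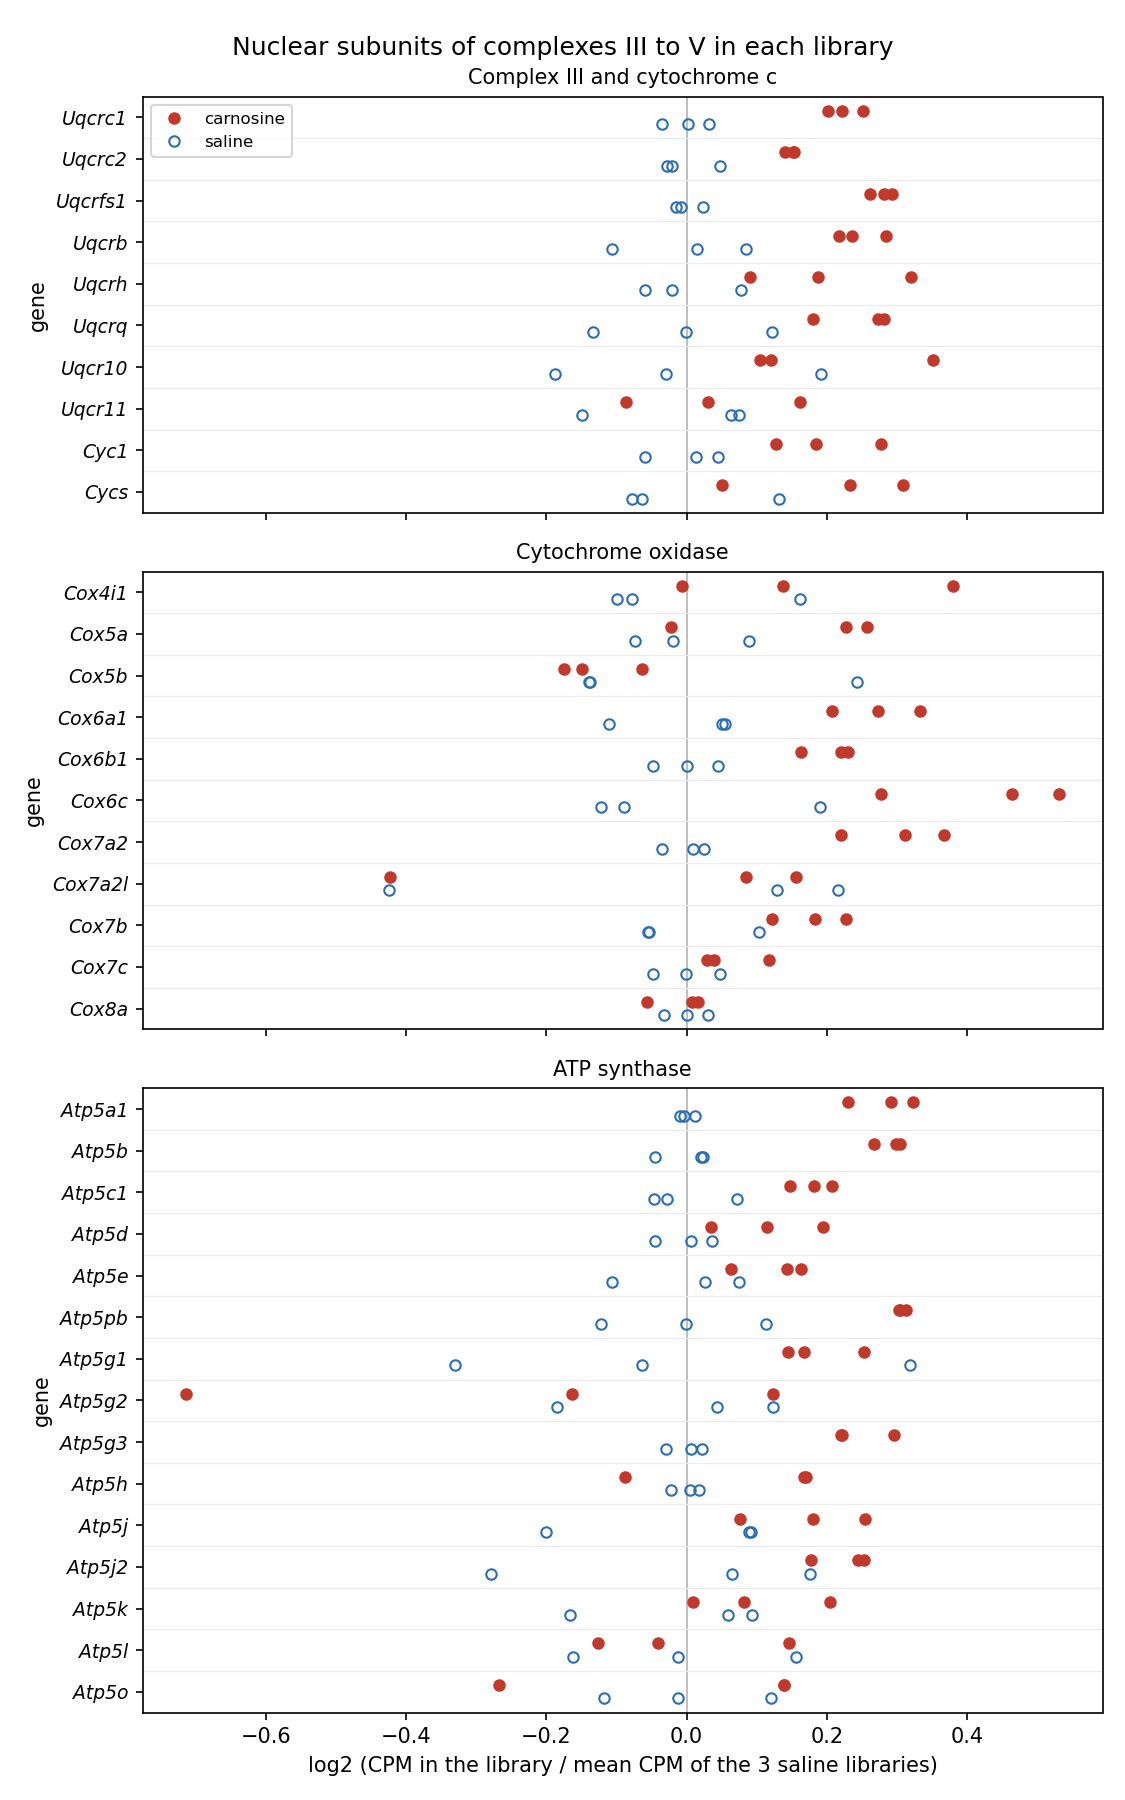
Level of each of the 36 subunit genes in each library, as log2 of its CPM over the mean CPM of the 3 saline libraries, by complex; filled red points are carnosine libraries and open blue points saline libraries. The carnosine points lie right of all saline points in 18 genes, and Cox7a2l, Atp5g2 and Atp5g1 have the widest spread within a group.

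Within a group, members varied by a median standard deviation of 0.0896 on the log2 CPM scale, against 0.119 for all tested genes. This spread ranged from 0.0185 to 0.332, with Cox7a2l at the top. Abundance went with being called: the 14 called members had a median of 129 CPM and the 22 others 55.5 CPM, and 8 of the 12 members over 100 CPM were called. Of the 22 others, 17 had a positive fold change, and in 3 of them (Uqcrh, Uqcrq and Cox7b) the unadjusted 95% interval excluded 0.

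Complex III has core proteins that scaffold it on the matrix side, catalytic subunits that carry the redox centers, and small accessory subunits. Of the 10 genes of complex III and cytochrome c, 5 rose and all 10 fold changes were positive, with a median of 0.20. The summed level was 868 ± 21.9 CPM in carnosine and 754 ± 7.1 CPM in saline (SD, n = 3 each).

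Uqcrc1 (ENSMUSG00000025651, GRCm38 chromosome 9, 108936633 to 108949623) encodes a core protein. Its level was 204, 199.6 and 197 CPM in carnosine libraries, against 167, 175 and 171 CPM in saline libraries. The groups were well apart, and the log2 fold change was 0.23 (SE 0.03, edgeR adjusted p = 0.0036). The other core protein, Uqcrc2 (chromosome 7, 120635176 to 120659524), had 171, 170.1 and 171 CPM in carnosine libraries, against 159, 151 and 152 CPM in saline libraries. Its fold change of 0.15 (SE 0.03, edgeR adjusted p = 0.0215) was the smallest among the called members.

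Uqcrfs1, the Rieske iron-sulfur protein (ENSMUSG00000038462, chromosome 13, 30540308 to 30545362), passes the first electron of each ubiquinol towards cytochrome c. It stood at 114, 117 and 116 CPM in carnosine libraries, against 94.8, 94.3 and 96.9 CPM in saline libraries. Both groups were tight, with a fold change of 0.28 (SE 0.03, edgeR adjusted p = 0.00208). Cyc1, cytochrome c1, which hands the electron on, reached 84.8, 90.5 and 81.6 CPM in carnosine libraries, against 71.7, 77 and 75.4 CPM in saline libraries. It was called with little room (0.20, SE 0.05, edgeR adjusted p = 0.0439).

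Among the accessory subunits, Uqcrb, which contributes to the ubiquinone site, had 36.1, 37.8 and 36.5 CPM in carnosine libraries, against 31.4, 28.8 and 32.9 CPM in saline libraries. The fold change was 0.24 (SE 0.07, edgeR adjusted p = 0.0468). Uqcrh, the hinge protein, was 85.9, 101 and 92 CPM in carnosine libraries, against 77.4, 85.2 and 79.5 CPM in saline libraries. Its groups just failed to overlap and it missed the threshold (0.20, SE 0.07, edgeR adjusted p = 0.0808). Uqcrq likewise had separate groups and was not called (0.25, edgeR adjusted p = 0.0576), and Uqcr10 overlapped (0.20, edgeR adjusted p = 0.262).

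The smallest difference of the complex was in Uqcr11, at 31.6, 37.5 and 34.3 CPM in carnosine libraries, against 35.3, 35.1 and 30.3 CPM in saline libraries. The groups overlapped and the 95% interval of the log2 fold change ran from -0.17 to 0.25. Cytochrome c itself (Cycs), the mobile carrier between complexes III and IV, had 26.9, 32.1 and 30.5 CPM in carnosine libraries, against 24.8, 24.6 and 28.4 CPM in saline libraries. It was not called (0.20, SE 0.09, edgeR adjusted p = 0.192). Uqcrc2, Uqcrb and Cyc1 missed the threshold in DESeq2 (adjusted p = 0.184, 0.194 and 0.165 in that order) and in most fits without 1 library. Uqcrb missed it in every such fit, Cyc1 in all but that without carnosine replicate 3, and Uqcrc2 in all but that without saline replicate 1. Of 21 alternative settings, Uqcrb kept its call in 8, Cyc1 in 10 and Uqcrc2 in 14. Of the complex, 2 genes were called without carnosine replicate 1, carnosine replicate 2 or saline replicate 3, and 3 genes without carnosine replicate 3, saline replicate 1 or saline replicate 2.

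**Figure D2:**
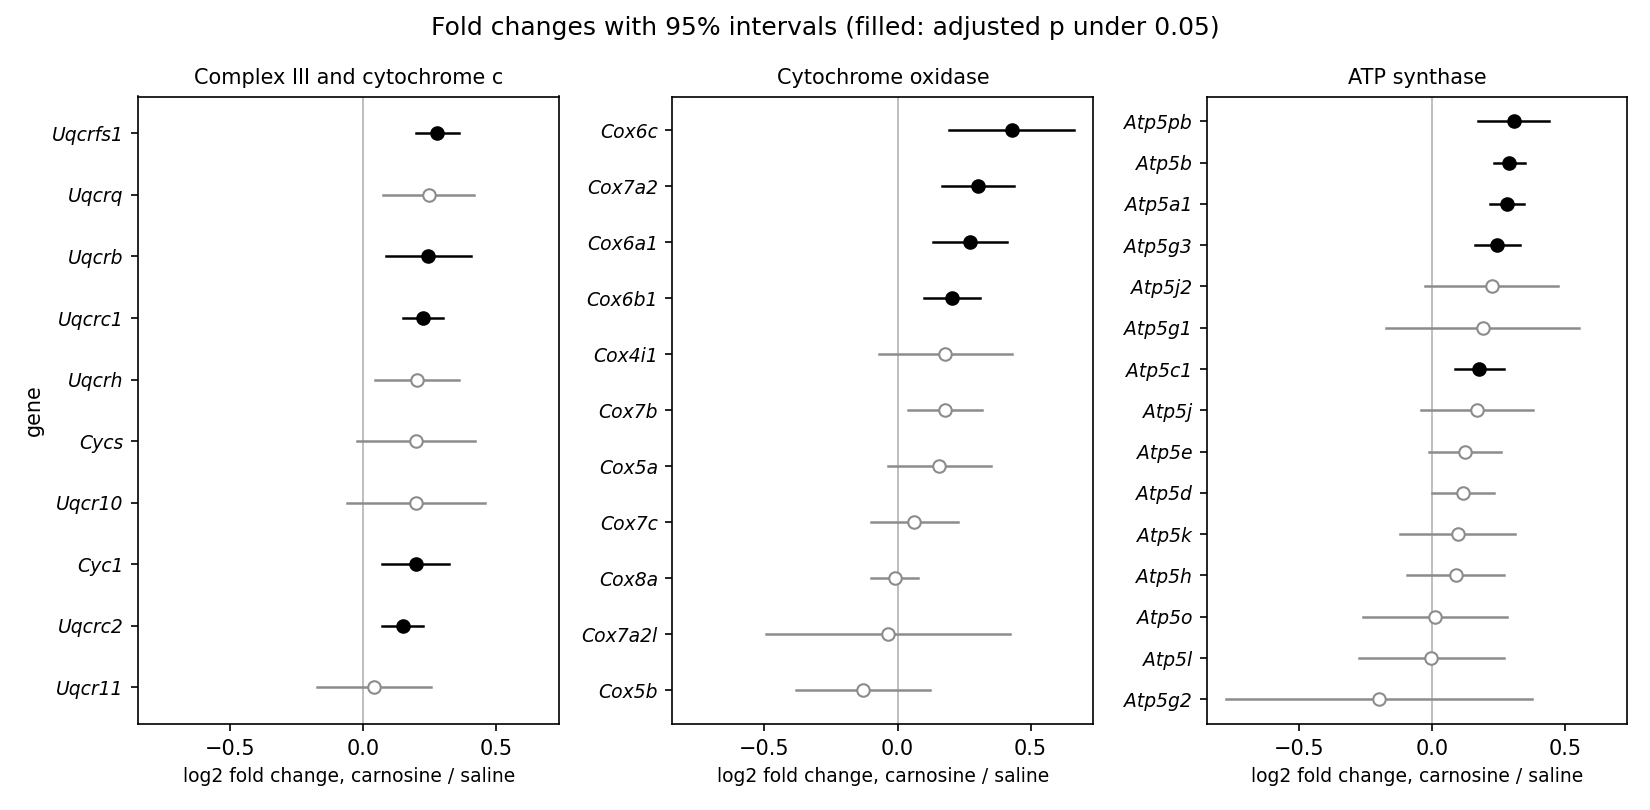
Log2 fold change (carnosine over saline) of each subunit gene with its 95% interval, by complex and ordered by size; filled points have an edgeR adjusted p under 0.05. All 10 genes of complex III and cytochrome c lie right of 0, and Cox6c (0.43) and Atp5g2 (-0.20) mark the ends of the range.

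Cytochrome oxidase has its catalytic core encoded by mitochondrial DNA, and its nuclear subunits surround that core, regulate it and hold the dimer together. Of the 11 nuclear members, 4 rose, and 8 fold changes were positive, with a median of 0.18. The summed level was 970.2 ± 11.7 CPM in carnosine and 887 ± 31.1 CPM in saline (SD, n = 3 each).

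Cox6c (ENSMUSG00000014313, chromosome 15, 35925886 to 35938246), a small membrane subunit, had the largest fold change of all 36 members. It was at 71.2, 74.6 and 62.6 CPM in carnosine libraries, against 48.6, 58.9 and 47.5 CPM in saline libraries. The groups did not overlap, although carnosine replicate 3 came close to saline replicate 2 (0.43, SE 0.10, edgeR adjusted p = 0.0258). Cox7a2 (chromosome 9, 79755361 to 79759878), the form of subunit 7A used outside heart and muscle, had 56, 50.6 and 53.9 CPM in carnosine libraries, against 43.7, 44.2 and 42.4 CPM in saline libraries. Its fold change was 0.30 (SE 0.06, edgeR adjusted p = 0.0117).

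The remaining called members take part in the contact between the monomers of the enzyme. Cox6a1, the form of subunit 6A used outside heart and muscle, was at 104, 99.5 and 95.1 CPM in carnosine libraries, against 85.2, 76.2 and 85.5 CPM in saline libraries (0.27, SE 0.06, edgeR adjusted p = 0.0199). Cox6b1, which lies on the intermembrane side, was at 82.7, 79.4 and 83.2 CPM in carnosine libraries, against 71, 68.7 and 73.2 CPM in saline libraries (0.20, SE 0.05, edgeR adjusted p = 0.0212), and DESeq2 did not call it (adjusted p = 0.121). Neither pair of groups overlapped. Leaving out carnosine replicate 1 left 1 called gene of the complex, Cox7a2, and leaving out carnosine replicate 2 or saline replicate 1 left 2.

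Cox8a, the most abundant nuclear subunit of the complex per length (115 ± 3.1 FPKM in carnosine and 116 ± 2.66 FPKM in saline; SD, n = 3 each), showed no difference of that size. It had 118, 123 and 124 CPM in carnosine libraries, against 125, 119.7 and 123 CPM in saline libraries. The groups overlapped almost fully, and the 95% interval of -0.10 to 0.08 excludes the fold changes of all 4 called subunits.

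Cox5b, a zinc-binding regulatory subunit, had the lowest fold change of the complex, at 48.5, 49.3 and 52.4 CPM in carnosine libraries, against 49.7, 49.7 and 64.7 CPM in saline libraries. A single high library, saline replicate 3, set the difference (-0.13, SE 0.11, edgeR adjusted p = 0.442), and without it the fold change was 0.01. Cox7a2l, which helps join cytochrome oxidase and complex III into supercomplexes, was low in 1 library of each group, with 117, 166 and 174 CPM in carnosine libraries, against 171, 182 and 117 CPM in saline libraries. Its interval, -0.49 to 0.42, is too wide to show a shift of the size seen in the called members. Cox4i1 (0.18), Cox5a (0.16), Cox7b (0.18) and Cox7c (0.06) were positive and not called, with edgeR adjusted p-values from 0.0807 for Cox7b to 0.569 for Cox7c.

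ATP synthase held the most abundant members and the smallest p-values. Of 15 members 5 rose and 13 fold changes were positive, with a median of 0.17. The summed level was 2912 ± 34.6 CPM in carnosine and 2456 ± 44.9 CPM in saline (SD, n = 3 each), 18.6% higher, against 15.2% for complex III with cytochrome c and 9.42% for cytochrome oxidase. Atp5b and Atp5a1 weigh most in the ATP synthase sum, at means of 1035 and 793 CPM in carnosine and 847 and 652 CPM in saline. By median fold change ATP synthase was the lowest, at 0.17, against 0.20 for complex III with cytochrome c and 0.18 for cytochrome oxidase. Differences between the complexes were not tested.

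The catalytic head is a ring of alternating alpha and beta subunits around the gamma shaft. Atp5b, the beta subunit that holds the catalytic sites (ENSMUSG00000025393, chromosome 10, 128083273 to 128090391), had 1046, 1019 and 1042 CPM in carnosine libraries, against 860.4, 859 and 821 CPM in saline libraries. Its fold change was 0.29 (SE 0.02, edgeR adjusted p = 0.000356). Atp5a1, the alpha subunit (ENSMUSG00000025428, chromosome 18, 77773729 to 77782869), was at 798, 765 and 816 CPM in carnosine libraries, against 648, 657 and 651 CPM in saline libraries (0.28, SE 0.03, edgeR adjusted p = 0.000588). In both genes the lowest carnosine library stood above the highest saline library by far more than the spread within a group. Atp5c1, the gamma subunit, had 194, 203 and 199 CPM in carnosine libraries, against 170.0, 184 and 172 CPM in saline libraries. It changed less (0.18, SE 0.04, edgeR adjusted p = 0.0213), and DESeq2 did not call it (adjusted p = 0.0943).

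The delta and epsilon subunits at the foot of the shaft, Atp5d (0.12, edgeR adjusted p = 0.154) and Atp5e (0.12, edgeR adjusted p = 0.184), were positive and not called. In the peripheral stalk, which keeps the head from turning with the ring, Atp5pb, subunit b, had 193, 194 and 193 CPM in carnosine libraries, against 156, 169 and 143 CPM in saline libraries. Its carnosine libraries were almost equal while the saline libraries spread (0.31, SE 0.06, edgeR adjusted p = 0.0106). Its partners in the stalk were not called: Atp5j (0.17, edgeR adjusted p = 0.233), Atp5h (0.09, edgeR adjusted p = 0.472) and Atp5o, the oligomycin sensitivity protein, at 0.01 (edgeR adjusted p = 0.953). The small membrane subunits Atp5j2 (0.22), Atp5k (0.10) and Atp5l (-0.00) were not called either, with edgeR adjusted p-values from 0.193 to 0.993.

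The rotating ring is built from a c subunit that 3 genes encode: Atp5g1, Atp5g2 and Atp5g3 differ in the import signal and give the same mature protein. Atp5g3 (ENSMUSG00000018770, chromosome 2, 73908447 to 73911326) carried most of the counts where copies elsewhere in the genome are kept apart, with 172, 163 and 163 CPM in carnosine libraries, against 142, 137 and 141 CPM in saline libraries. It rose (0.25, SE 0.04, edgeR adjusted p = 0.00388). Atp5g1 had 16.4, 15.5 and 15.2 CPM in carnosine libraries, against 11, 17.2 and 13.2 CPM in saline libraries, and was not called (0.19, SE 0.15, edgeR adjusted p = 0.436). Counted apart from its copies, Atp5g2 had the lowest level and the lowest fold change of all 36 members, with 2.4, 1.35 and 1.97 CPM in carnosine libraries, against 2.41, 1.94 and 2.27 CPM in saline libraries. The groups overlapped and the interval ran from -0.77 to 0.38.

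Per length, the order of the members by mean FPKM was led by Atp5a1 (149.8 ± 4.84 in carnosine and 124 ± 0.851 in saline; SD, n = 3 each) and Atp5b (149 ± 2.08 in carnosine and 122 ± 3.4 in saline; SD, n = 3 each), which did not differ from each other beyond their spread. Cox8a followed, then Uqcrfs1 (84.5 ± 0.909 FPKM in carnosine and 69.9 ± 0.962 FPKM in saline; SD, n = 3 each) and Cox6a1 (83.1 ± 3.64 FPKM in carnosine and 69.1 ± 4.44 FPKM in saline; SD, n = 3 each). At the bottom stood Atp5l, Atp5g1 and Atp5g2, at 1.787, 1.502 and 0.972 FPKM over all libraries. The lengths behind the FPKM run from 835 to 9797 bases and are mostly longer than a member's reference transcript, so the order depends on them. Per kilobase of the transcript named 201 in the annotation, Uqcrfs1 moves to rank 22 among the 36 and Uqcrh to rank 4, while Atp5b and Atp5a1 remain the highest.

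The low levels of the ring and other small subunits stand beside counts on near-identical copies elsewhere in the genome. In GENCODE M21, 19 of the 36 members had at least 1 copy with 90% identity or more over at least 200 bases, 60 copies in all, of which 57 are annotated as pseudogenes. Copies of 18 members carried counts. Gm10175, a processed pseudogene on chromosome 7 (23946646 to 23947290), held 15180 counts over the 6 libraries, where Atp5g2, with 100% identity over 441 bases, held 144. Reads from such a pair cannot be assigned by sequence within the shared stretch. The counting rule for reads that fit several places is not given in the sources used here, so how counts were divided between gene and copy is unknown.

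Coding bases are shown for 3 pairs with no difference over the coding sequence, and for 1 pair with few differences, because they bear on how reads can be told apart. The first 120 coding bases stand for the identical pairs. For Atp5g2 and Gm10175 the whole coding sequence of 438 bases is identical, and so are the 315 bases of Cycs and Gm10053 and the 309 bases of Atp5l and Gm10221. For Uqcrb and Gm2962, bases 193 to 312 of the coding sequence are shown, where capitals mark the 4 bases that differ. These sequences were read from the GENCODE M21 transcripts of build GRCm38.
Atp5g2 and Gm10175: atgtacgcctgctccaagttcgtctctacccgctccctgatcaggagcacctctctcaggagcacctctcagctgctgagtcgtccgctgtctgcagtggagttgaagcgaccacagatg
Cycs and Gm10053: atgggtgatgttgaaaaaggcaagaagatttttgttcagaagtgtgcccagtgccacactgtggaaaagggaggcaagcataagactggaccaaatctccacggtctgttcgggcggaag
Atp5l and Gm10221: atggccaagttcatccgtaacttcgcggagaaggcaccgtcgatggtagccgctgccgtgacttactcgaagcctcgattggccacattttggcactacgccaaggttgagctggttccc
Uqcrb: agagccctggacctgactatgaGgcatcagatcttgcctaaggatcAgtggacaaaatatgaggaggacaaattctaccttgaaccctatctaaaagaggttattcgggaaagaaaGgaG
Gm2962: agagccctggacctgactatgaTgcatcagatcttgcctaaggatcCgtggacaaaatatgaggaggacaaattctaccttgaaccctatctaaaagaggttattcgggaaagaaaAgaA

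In 7 members the copies held over 30% of the counts of gene and copies together: 99.1% for Atp5g2, 80% for Atp5l, 78.1% for Atp5g1, 72.4% for Cycs, 54.7% for Atp5h, 39.7% for Cox5b and 34.9% for Uqcrb. Of 22 copies tested, 4 were called higher and 0 lower in edgeR, where 9.51% and 8.39% of all tested genes were. At an unadjusted p under 0.05, 0 were lower, and 20 had a positive fold change. Gm10175 had 243, 228 and 230.4 CPM in carnosine libraries, against 199, 201 and 205 CPM in saline libraries (0.21, SE 0.03, edgeR adjusted p = 0.00508). Cox5b-ps (0.26), Gm10039, the copy of Atp5g1 (0.25), and Gm10221 (0.24) were the others, with edgeR adjusted p-values of 0.0262, 0.0332 and 0.0301. These others missed the threshold once a trend with gene length was taken out (edgeR adjusted p = 0.168, 0.191 and 0.191 in that order). They also missed it with the replicate number as a block (0.0705, 0.0800 and 0.0617), while Gm10175 kept its call in both. With the length trend, Gm6969, the copy of Cox7a2l, was called lower (-0.25, edgeR adjusted p = 0.0273).

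When each gene was summed with its copies, 17 members were called higher instead of 14, an alternative added after seeing the data. The additions were all ATP synthase subunits, which made 8 called members of that complex instead of 5. Atp5g2 with its copies was at 246, 232 and 234 CPM in carnosine libraries, against 203, 204 and 208 CPM in saline libraries, and the fold change turned positive (0.21, SE 0.03, edgeR adjusted p = 0.00531). Atp5g1 with its copies was at 71.7, 72.6 and 73.8 CPM in carnosine libraries, against 62.5, 64.5 and 58.8 CPM in saline libraries (0.23, SE 0.05, edgeR adjusted p = 0.0191). Atp5l, flat when taken alone, had a fold change of 0.18 (SE 0.05, edgeR adjusted p = 0.0465) when summed. Cox5b moved to 0.02 and Cycs to 0.12, and neither was called (edgeR adjusted p = 0.844 and 0.198 in that order). Which of gene and copy the RNA came from cannot be read from these sums.

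**Figure D3:**
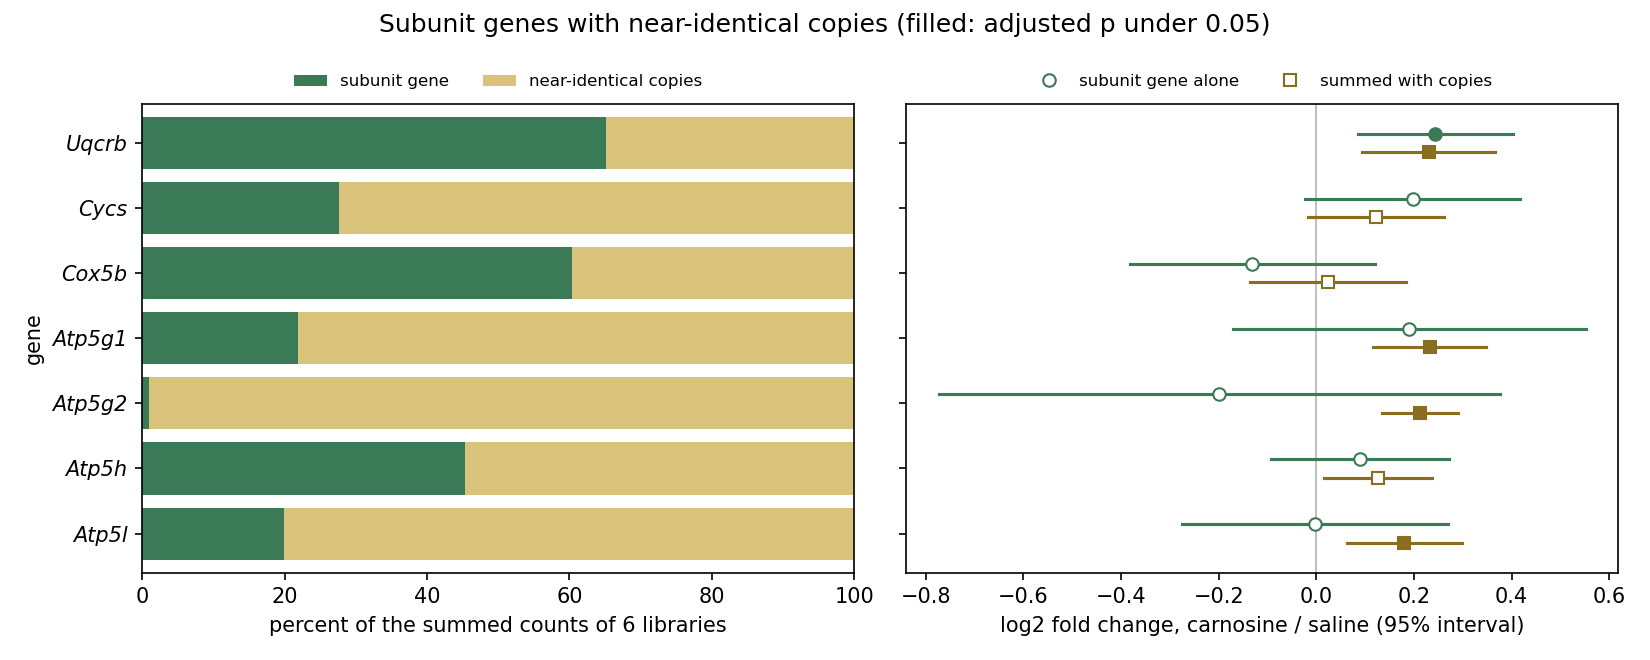
Left, percent of the summed counts of gene and near-identical copies over 6 libraries for the 7 subunit genes whose copies hold over 30%; right, log2 fold change (carnosine over saline) with 95% interval of the gene alone (circles) and summed with its copies (squares), filled where the edgeR adjusted p is under 0.05. Copies hold 99.1% of the sum for Atp5g2, and the sums of Atp5g1, Atp5g2 and Atp5l pass the threshold that the genes alone miss.

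Promoters of respiratory genes in mammals are known for binding sites of NRF1, GABPA (also called NRF2), YY1 and SP1, with ESRRA as a further regulator. RefSeq promoter windows of GRCm38.p6, from 250 bases before to 50 bases after the start of transcription, were matched for 29 of 36 members, giving 32 windows. The NRF1 letters GCATGCGC, read on both strands, stood in 7 of 32 member windows (21.9%) and in 2.71% of all 32851 windows. GABPA letters CCGGAAGT stood in 12.5% of member windows and 3.89% of all windows, YY1 letters AAGATGGCG in 6.25% and 1.4%, SP1 letters GGGGCGGGG in 12.5% and 11.4%, and ESRRA letters TCAAGGTCA in 3.12% and 0.423%. A palindromic stretch can hold the NRF1 letters on both strands at overlapping positions and was counted once.

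The NRF1 letters were present in 2 of 9 called and in 5 of 20 other members with a window. No window was matched for Uqcrc2, Uqcrb, Cyc1, Cox6c and Atp5a1, which were called, or for Uqcrq and Cox4i1, which were not. The members without a window were thus mostly called ones. GABPA letters stood in 0 of 9 called and 4 of 20 other members, YY1 letters in 0 and 2, SP1 letters in 2 and 2, and ESRRA letters in 1 and 0. These counts are a description, with no test of a difference. Windows are shown for Uqcrc1 and Cox6a1, which rose and hold the NRF1 letters, for Cycs, which holds them and was not called, and for Atp5b, the most abundant member by CPM, which holds the SP1 letters. Each is written 5′ to 3′ on the strand of the gene, with the matched letters in capitals: chr9:108936398-108936697 (plus strand) for Uqcrc1, chr5:115348909-115349208 (minus strand) for Cox6a1, chr6:50566520-50566819 (minus strand) for Cycs and chr10:128083057-128083356 (plus strand) for Atp5b.
Uqcrc1: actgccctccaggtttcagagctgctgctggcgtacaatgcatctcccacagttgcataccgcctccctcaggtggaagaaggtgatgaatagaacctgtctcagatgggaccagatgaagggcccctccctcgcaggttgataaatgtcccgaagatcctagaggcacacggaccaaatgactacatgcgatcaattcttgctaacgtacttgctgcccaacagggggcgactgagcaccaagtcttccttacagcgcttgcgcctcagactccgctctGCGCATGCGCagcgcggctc
Cox6a1: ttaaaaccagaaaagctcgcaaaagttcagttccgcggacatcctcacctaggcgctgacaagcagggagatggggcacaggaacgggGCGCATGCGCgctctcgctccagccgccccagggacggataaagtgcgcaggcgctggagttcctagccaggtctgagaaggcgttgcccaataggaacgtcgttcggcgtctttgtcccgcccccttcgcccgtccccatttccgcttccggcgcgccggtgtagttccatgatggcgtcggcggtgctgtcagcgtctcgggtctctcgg
Cycs: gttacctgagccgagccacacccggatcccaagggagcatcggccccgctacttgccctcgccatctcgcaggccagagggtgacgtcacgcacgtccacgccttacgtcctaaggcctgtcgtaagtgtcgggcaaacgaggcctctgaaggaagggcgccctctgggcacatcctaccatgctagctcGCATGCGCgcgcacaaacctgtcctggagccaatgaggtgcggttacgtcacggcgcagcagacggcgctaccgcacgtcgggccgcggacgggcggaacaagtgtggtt
Atp5b: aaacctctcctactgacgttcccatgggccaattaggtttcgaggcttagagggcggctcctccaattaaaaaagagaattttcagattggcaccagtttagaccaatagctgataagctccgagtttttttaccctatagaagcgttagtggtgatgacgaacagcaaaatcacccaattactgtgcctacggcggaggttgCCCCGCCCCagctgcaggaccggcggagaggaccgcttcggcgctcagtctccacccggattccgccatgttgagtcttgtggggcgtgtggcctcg

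Of 13 genes for these and related regulators that were tested, 0 rose in edgeR (0 at an unadjusted p under 0.05, 0 in DESeq2 and 0 in limma-voom) and 1 fell. Over all tested genes 9.51% rose and 8.39% fell, so 1 lower gene of 13 is not more than that share. Esrra, the estrogen-related receptor alpha, had 15.9, 17.1 and 18.8 CPM in carnosine libraries, against 23.3, 24.4 and 23.6 CPM in saline libraries. It was lower with no overlap (-0.46, SE 0.08, edgeR adjusted p = 0.00974). Nrf1 (-0.09), Gabpa (0.08), Yy1 (-0.03) and Sp1 (-0.07) were not called, with edgeR adjusted p-values of 0.493, 0.189, 0.417 and 0.234 in that order.

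The partners of the members that mitochondrial DNA encodes also lay higher. All 6 fold changes of the mitochondrially encoded subunits of complexes III to V were positive (median 0.13) and 3 were called in edgeR, against 1 in DESeq2. mt-Cytb, the cytochrome b of complex III, was at 2818, 2767 and 2767 CPM in carnosine libraries, against 2303, 2277 and 2348 CPM in saline libraries (0.27, SE 0.02, edgeR adjusted p = 8.14e-05). The oxidase core subunits mt-Co1 (0.15, edgeR adjusted p = 0.00186) and mt-Co2 (0.12, edgeR adjusted p = 0.0397) were called, and mt-Co3 (0.06, edgeR adjusted p = 0.199) was not. The ATP synthase subunits mt-Atp6 (0.10) and mt-Atp8 (0.15) were not called (edgeR adjusted p = 0.107 and 0.0893 in that order). The share of counts on mitochondrially encoded genes was 3.1% to 3.19% in carnosine libraries and 2.68% to 2.83% in saline libraries, and without these genes in the fit the members' count of calls was again 14.

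Upstream in the chain, 10 of 36 nuclear genes of complex I rose and 0 fell in edgeR (0 lower at an unadjusted p under 0.05, in DESeq2 and in limma-voom), with a median of 0.12. DESeq2 called 3 of the 36 higher and limma-voom called 11. The 4 with the smallest p were Ndufs1 (0.27), Ndufa9 (0.24), Ndufv2 (0.27) and Ndufa1 (0.36), with edgeR adjusted p-values of 0.00876, 0.0142, 0.0161 and 0.0193. Complex II had 3 of 4 genes higher (2 in DESeq2), with Sdha, the flavoprotein, at 383, 385 and 389 CPM in carnosine libraries, against 318, 331 and 319 CPM in saline libraries (0.26, SE 0.03, edgeR adjusted p = 0.000818). Ndufa4, a subunit now assigned to cytochrome oxidase, rose as well (0.33, SE 0.04, edgeR adjusted p = 0.00267) and was the only one called of 7 tested genes in a list of further subunits and regulators.

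Assembly factors build the complexes without being part of them. For complex III 0 of 7 were called in edgeR, with 2 higher and 0 lower at an unadjusted p under 0.05 and 0 in DESeq2 and limma-voom, and the median was -0.03. For cytochrome oxidase 2 of 23 rose (8.7%, where 9.51% of all tested genes rose), with a median of 0.02. They were Coa5 (0.25, edgeR adjusted p = 0.00675) and Lrpprc, which stabilizes mitochondrial mRNAs (0.26, edgeR adjusted p = 0.00835). For ATP synthase Fmc1 alone of 5 rose (0.45, edgeR adjusted p = 0.0192). Isoforms known from heart, muscle and testis were low: Cox7b2, Cox8b, Cox8c and Cyct had 0 counts in all 6 libraries, Cox7a1 was too low to be tested, and Cox4i2, Cox6a2 and Cox6b2 were not called in edgeR (0 at an unadjusted p under 0.05, 0 in DESeq2 and 0 in limma-voom).

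**Figure D4:**
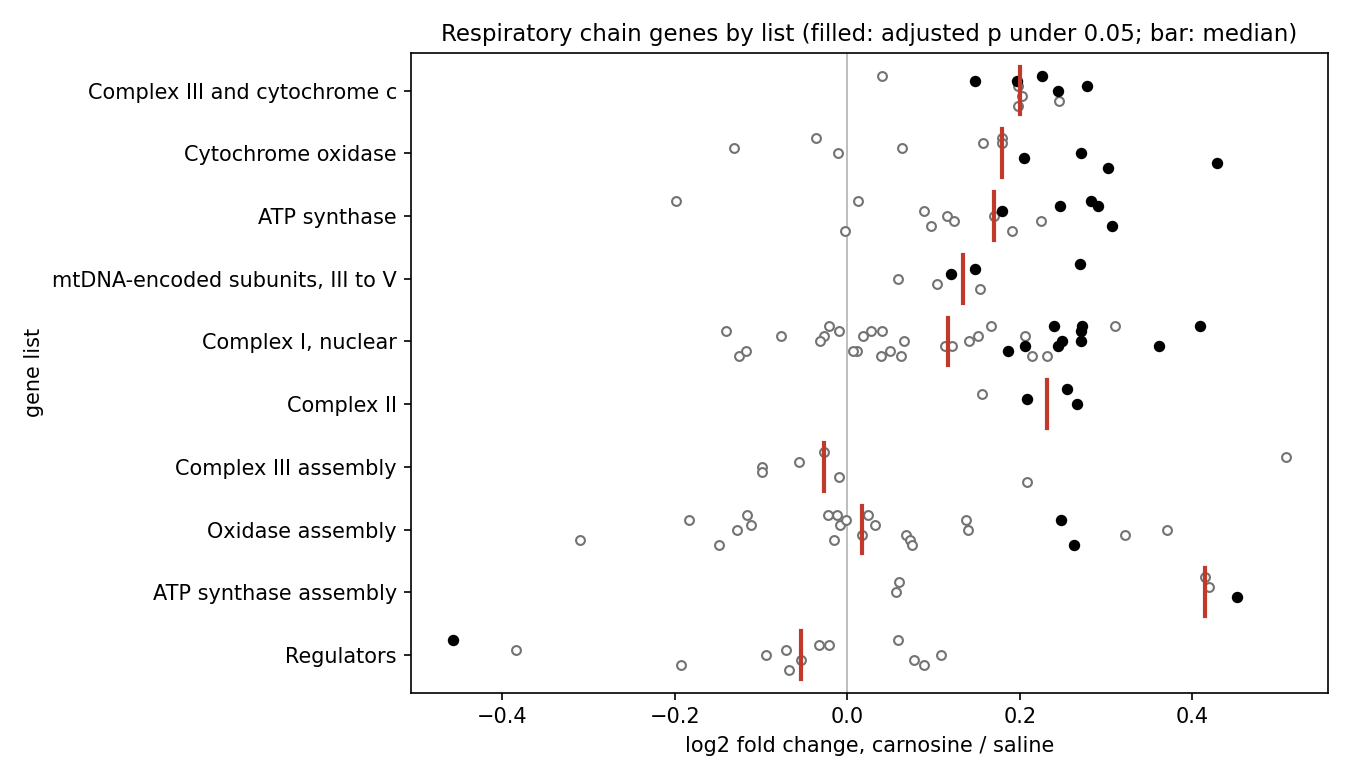
Log2 fold change (carnosine over saline) of every tested gene in the subunit lists and in related lists; filled points have an edgeR adjusted p under 0.05 and the red bar is the list's median. The 3 subunit lists have medians of 0.17 to 0.20, and among the regulators the called gene, Esrra, lies left of 0.

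Members have short gene models, with a median length of 2720 bases, and 31 of the 36 are shorter than the median tested gene (5443 bases). Fold changes moved with length over all tested genes, with medians of 0.07, -0.00, -0.01 and -0.04 from the shortest to the longest quartile. In the quartile of shortest genes 12.3% were called higher. After a length trend was taken out, the members' median was 0.18 and 12 were called, and Cox6b1 (edgeR adjusted p = 0.0649) and Uqcrb (edgeR adjusted p = 0.11) missed the threshold.

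Cell type markers moved between the groups beside the subunits. LT-HSC markers were all detected, and 1 of 14 was called (Mecom, 0.19, edgeR adjusted p = 0.0241; 0 in DESeq2), with Kit the most abundant per length (40.7 ± 0.759 FPKM in carnosine and 42.1 ± 0.608 FPKM in saline; SD, n = 3 each). Transcripts of genes that the gate selects against were abundant, with Cd34 at 879, 851 and 854 CPM in carnosine libraries, against 852, 884 and 836 CPM in saline libraries, and Flt3 (Flk2) at 125 ± 1.79 FPKM in carnosine and 132 ± 2.44 FPKM in saline (SD, n = 3 each). Per length Flt3 thus stood above Kit in both groups. LT-HSC is the name that the labels give, and whether the sorted cells were LT-HSCs alone was not tested. Of 12 progenitor markers 6 fell, among them Mpo (-0.75), and their summed level was 2552 to 2584 CPM in carnosine libraries and 2948 to 2989 CPM in saline libraries. Erythroid markers rose in 6 of 12, among them Hbb-bt (1.63), with a summed 309 to 321 CPM in carnosine libraries and 189 to 211 CPM in saline libraries. B and plasma cell markers were split, 3 higher and 4 lower of 11, with Igkc (1.71) among the higher and a summed 1580 to 1865 CPM in carnosine libraries and 837 to 908 CPM in saline libraries.

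Slamf1, which encodes the stem cell marker CD150 and was chosen after its values were seen, averaged 3.64 CPM in carnosine and 4.28 CPM in saline and was not called (edgeR adjusted p = 0.409). Cell cycle genes rose in 15 of 20 (11 in DESeq2), with a median of 0.24, and their summed level was 5517 to 5556 CPM in carnosine libraries and 4669 to 4719 CPM in saline libraries. Neutrophil markers (summed 5.38 to 16.6 CPM in carnosine libraries and 4.27 to 11.1 CPM in saline libraries) and macrophage markers (160 to 170.2 CPM in carnosine libraries and 172 to 183 CPM in saline libraries) had 0 calls in edgeR, DESeq2 and limma-voom, with 0 neutrophil and 3 macrophage markers at an unadjusted p under 0.05. Among the other lists, T and NK cell markers had 1 (Cd4, lower), megakaryocyte markers 1 (Pf4, lower) and stromal and endothelial markers 2 (Cxcl12 higher, Pecam1 lower). The part of any of these cell types, or of cycling cells, in the subunit differences was not tested. Leaving immunoglobulin segments out of the fit gave the same count of 14 called members.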

How the data were processed

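RNA was measured in 6 libraries of sorted mouse LT-HSCs, 3 per group. Per the labels' protocols, column-purified total RNA with an integrity number above 7.0 was selected for poly-A and made into stranded paired-end libraries, run on a NovaSeq instrument. As tools and build, the submitters' processing notes list HISAT2, StringTie, edgeR, CASAVA 1.8 and GRCm38, without an order. Strand setting, annotation release and the treatment of reads with several matches were not stated there, so a gene, its antisense partner and its near-identical copies may share reads.

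Per the file headers, the authors deposited a raw count and an FPKM value for each gene and library, and both were used as deposited. Gene lengths were taken from count, FPKM and library total. The name Atp5o stands on 2 rows, and the row with 0 counts in every library was left aside.

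Counts were scaled with TMM, filtered with filterByExpr to 15298 genes, and tested by quasi-likelihood in edgeR 4.0.16 (R 4.3.3, two-sided, Benjamini-Hochberg adjustment over all genes tested, threshold 0.05). Standard errors (SE) and 95% intervals are those of single genes. A level of 3 counts equals 0.226 to 0.291 CPM according to the library, a limit that covers counting error alone, as reads without molecular identifiers are not independent molecules. Copies were found with blastn 2.17.0 of each member's transcript against GENCODE M21 (at least 90% identity, 200 aligned bases and 50% of either transcript).

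Members and gene lists were chosen with earlier results of these data known. The genes named were all members past the threshold, the 3 most abundant and the lowest-changing member of each complex, and, of other lists, up to 4 called genes with the smallest p. Copies and regulators of the printed motifs were named besides.

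Alternatives were DESeq2 1.42.0, limma-voom and limma-trend on log2 of FPKM with pseudocounts of 1 and 0.1 (limma 3.58.1), other scalings, a minimum of 1 CPM in 3 libraries or no filter, a replicate block, a length trend, immunoglobulin segments left out and each library left out in turn. Added after seeing the data were a length and GC trend, mitochondrially encoded genes left out, and copies summed with their member. The edgeR step was tested on simulated counts of known change.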

Additional observations from a re-analysis of the deposited data

How the results depend on the processing

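Across 21 alternatives, no member was called lower and all 14 called members kept a positive fold change. Of these, 7 kept their call under every alternative. The count of called members was 9 in DESeq2 and 8 to 12 with 1 library left out. Some alternatives called members that the main fit did not. Besides the sums with copies, these were Uqcrh with the replicate block, Uqcrq in limma-voom, and Uqcrq and Cox7b without saline replicate 2. For complex III and cytochrome c the count was 3 with upper-quartile scaling, 3 with no filter, 2 in DESeq2 and 2 to 3 with 1 library left out. For cytochrome oxidase it was 1 to 4 with 1 library left out, and for ATP synthase 8 with copies summed. Fits without a library hold fewer samples, and the fit with no filter tests 31351 genes; the cause of the other shifts was not tested.

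The median fold change of members was 0.17 with upper-quartile scaling, 0.20 with no filter, 0.17 on log2(FPKM + 1) and 0.16 to 0.20 with 1 library left out. Upper-quartile scaling moved the median of all genes to -0.01 and no filter to -0.06.

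Under at least 1 alternative, 7 members changed sign, none of them called. Atp5g2 (-0.20) and Cox5b (-0.13) had the lowest fold changes of all members, and the others lay near 0. Uqcr11 was -0.022 with the length trend and -0.030 to 0.097 with 1 library left out. Cox5b was 0.024 with copies summed and -0.19 to 0.011 with 1 library left out. Cox7a2l ran from -0.21 to 0.12 with 1 library left out. Cox8a was 0.0040 with no filter and -0.025 to 0.011 with 1 library left out. Atp5g2 was 0.21 with copies summed. Atp5l was 0.012 with no filter, 0.017 with the length trend, 0.00052 without immunoglobulin segments, 0.00013 in limma-voom, 0.018 with length and GC trend, 0.18 with copies summed and -0.079 to 0.083 with 1 library left out. Atp5o was -0.0018 with upper-quartile scaling, -0.013 in limma-voom and -0.055 to 0.14 with 1 library left out.

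With the replicate number as a block, 12 members and 3 genes of complex III and cytochrome c were called, and the replicate block changed no direction. Same-numbered libraries did not deviate together from their group means (correlations -0.0495, -0.0686 and 0.0188). The labels do not say whether same-numbered libraries share an animal or a day. Correlations of so few libraries cannot decide whether the numbers pair the samples. Low counts limit Atp5g2 most when it is taken apart from its copies, with as few as 14 counts in a library. A change of the size seen in the called members was not detectable there. How far the division of reads between Atp5g2 and its copies set these counts is unknown.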
